A study of Homo sapiens with 26 samples.

Results

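The nuclear receptor genes other than HNF4 were followed across 3 human pancreatic ductal adenocarcinoma cell lines in which HNF4α isoforms had been induced or repressed. The members are the human nuclear receptor genes without HNF4A, HNF4G and PPARA, found by matching the Ensembl identifiers of the count tables to gene symbols. All 43 members had a line in each table, which list 62703 Ensembl genes in Panc10.05 and BxPC3 and 62754 in AsPC-1. HNF4A encodes HNF4α, itself a nuclear receptor, and its isoforms start at the P1 and P2 promoters. Poly(A) RNA was sequenced in 26 libraries. In Panc10.05 and BxPC3, doxycycline switched on isoform P1-a2 or isoform P2-a8, and the cells labelled NC are the controls, named GFP-NC in Panc10.05 and EV-NC in BxPC3. Each of these 6 groups had 2 libraries. All Panc10.05 and BxPC3 cells, controls included, received doxycycline. The dose was 500 ng/mL in every BxPC3 group, 25 ng/mL for P1-a2 and NC in Panc10.05, and 12.5 ng/mL for P2-a8 in Panc10.05. Isoform and dose therefore cannot be told apart wherever P2-a8 is compared with NC or with P1-a2 in Panc10.05. In AsPC-1, CRISPR interference, in which an inactive Cas9 is brought to a promoter to lower its transcription, was aimed at P1 (guides sgP1E and sgP1J), at P2 (sgP2D and sgP2G) or at both isoforms (sgDual2 and sgDual3), and sgNC is the control guide. Each guide had 2 libraries, which makes 4 for sgP1, sgP2 and sgDual and 2 for sgNC. The labels give no statement that replicates came from separate cultures, so p-values measure only the spread between these libraries. Each AsPC-1 group pools the libraries of both guides of a target, except where a fit by guide is named. In bulk RNA, fewer cells expressing a gene and less RNA per cell cannot be told apart.

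Nuclear receptors are transcription factors that share a zinc finger DNA-binding domain and, in most members, a pocket for a small lipophilic ligand. Many bind DNA as partners of the retinoid X receptors (RXR), others as homodimers or monomers, and their activity is set by ligand, by coactivators and corepressors, and by how much of each receptor a cell makes. In liver, intestine and pancreas, HNF4α works beside several of them: the bile acid receptor NR1H4 (FXR), the xenobiotic receptors NR1I2 (PXR) and NR1I3 (CAR), the small heterodimer partner NR0B2 (SHP), and NR5A2 (LRH-1), a regulator of acinar and ductal genes.

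Libraries held 34618745 to 46827673 counts in Panc10.05, 26369154 to 37483772 in BxPC3 and 26079388 to 50662077 in AsPC-1. Levels are given in CPM, the count scaled to library size, after edgeR's normalization of the libraries. Differences are log2 fold changes with a standard error (SE) derived from edgeR's quasi-likelihood test. This SE is the absolute log2 fold change divided by the square root of the test's F statistic. Adjusted p-values are Benjamini-Hochberg values over all genes tested in a line, and a gene is called where its adjusted p is under 0.05. The targeted gene went with the labels: HNF4A averaged 0.149 CPM in the Panc10.05 controls, 11.8 with P1-a2 and 37.6 with P2-a8. In BxPC3 the means were 0.771 CPM in the controls, 10.7 with P1-a2 and 13.4 with P2-a8. In AsPC-1 HNF4A averaged 213 CPM with sgNC, 129 with sgP1, 86.5 with sgP2 and 7.99 with sgDual. The epithelial genes KRT8, KRT19 and EPCAM had means of at least 106 CPM in every group, and the leukocyte gene PTPRC stayed at or under 0.105 CPM. The ductal keratin KRT7 was at 1.02 to 6.11 CPM in AsPC-1, where LUM, a gene of fibroblasts, averaged 151 to 285 CPM and was highest with sgDual. These genes come from longer marker lists, whose other genes, such as CDH1, COL1A1, COL3A1, CD68 and LYZ, are not given here. LUM is thus a single gene and not a reading of the fibroblast list. The part of these marker levels in the results below was not tested.

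Of the 43 members, 25 passed the filter on low counts in all 3 lines, 7 in a pair of lines, 2 in a single line and 9 in none. The 9 are RORB, RXRG, NR2E1, ESR2, ESRRB, ESRRG, PGR, NR5A1 and NR0B1. Group means of at least 1 CPM were reached by 28 members in Panc10.05, 29 in BxPC3 and 28 in AsPC-1, and by 24 in all lines. Since a member could pass the filter through 1 high group, counts over the members tested are not counts over the family.

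Per kilobase of exon, ESRRA led the control cells of BxPC3 and AsPC-1 and NR1H2 those of Panc10.05, with NR2F6 among the first 3 in each line. NR1H2 (LXRβ, a sterol sensor) was highest in the Panc10.05 controls at 48.0 ± 1.11 CPM per kb (SD, n = 2), followed by the orphan receptor NR2F6 at 34.7 ± 0.925 and by PPARD, a fatty acid sensor, at 34.3 ± 2.33. The values of NR2F6 and PPARD did not differ beyond their spread. ESRRA (ERRα, a regulator of mitochondrial genes) was highest in the BxPC3 controls at 45.0 ± 0.0630 CPM per kb, next to RARG, a retinoic acid receptor, at 41.4 ± 1.33 and NR2F6 at 36.9 ± 2.66. ESRRA also led AsPC-1 with sgNC at 37.1 ± 3.55 CPM per kb, ahead of NR2F6 at 33.0 ± 0.783, with no overlap between their libraries. AsPC-1 alone among the lines had NR1H3 (LXRα, 24.9 ± 3.16), PPARG (the adipogenic receptor, 23.9 ± 2.24) and NR1I2 (16.2 ± 1.54) among its first 5. The lines come from separately processed tables, so these ranks are within each line.

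**Figure D1:**
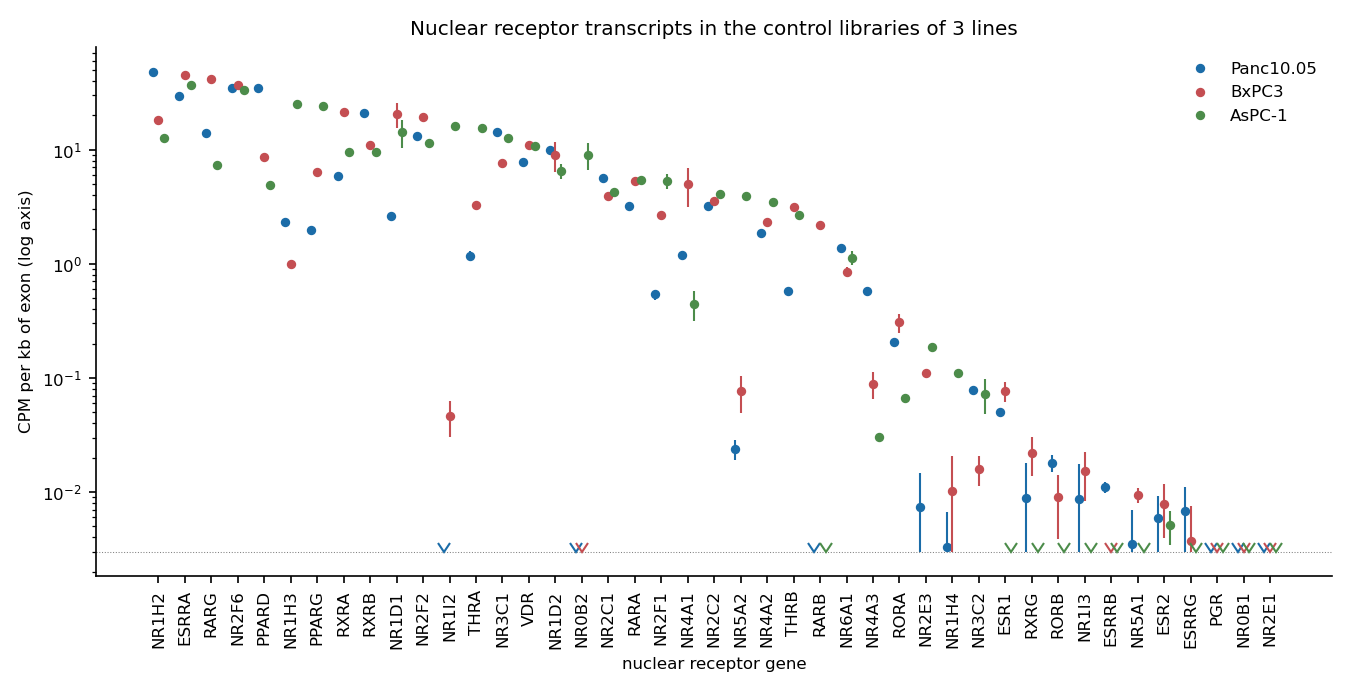
Level of the 43 nuclear receptor genes in the control libraries of Panc10.05, BxPC3 and AsPC-1, in CPM per kilobase of exon on a log axis, with the mean as a point and the line running from the lower to the higher of 2 libraries. Open arrows on the dotted line stand for means at or near 0, NR1H2 leads Panc10.05 at 48.0 CPM per kb, and ESRRA leads BxPC3 at 45.0 and AsPC-1 at 37.1.

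Most members tested in Panc10.05 changed with either isoform, in a line in which a large share of all genes did. With P1-a2, 12 of the 28 members tested were higher and 9 lower, where 62% of all 17247 genes tested were called. The median absolute log2 fold change was 0.69 over the members and 0.44 over all genes. With P2-a8, 13 were higher and 6 lower, beside 46.2% of all genes. P1-a2 against P2-a8 gave 10 higher and 8 lower, beside 46.9%. At a fold of at least 2 as well, the members called were 5, 4 and 6 in these comparisons, where 19.6%, 9.64% and 8.44% of all genes passed.

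BxPC3 gave fewer calls. With P1-a2, 7 of 32 members were higher and 9 lower, where 32% of 17635 genes were called, and with P2-a8 5 were higher and none lower, where 6.99% were. DESeq2 called 4 higher and 1 lower in the latter comparison, and leaving out any 1 of its 4 libraries left 2 or 3 calls. Without the second control library, P1-a2 against NC had 10 calls, and P1-a2 against P2-a8 had 7 without the first P2-a8 library or the second P1-a2 library. P1-a2 against P2-a8 gave 6 in each direction, beside 22.5%. At a fold of at least 2 these counts were 4, 2 and 2, beside 7.04%, 2.06% and 2.98%. For DESeq2 and the fits without a library, shares of all genes were not computed. The 2 comparisons of each line with NC share their control libraries.

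In AsPC-1 no member of 31 was called with sgP1 against sgNC in edgeR's quasi-likelihood test, where 0.265% of 16992 genes were. That fit takes the libraries of both guides of a target as 1 group, so its spread includes differences between guides. A fit with a group per guide called more members with sgP1, with sgP2 and with sgP2 against sgP1, as given below. At an unadjusted p under 0.05 there were 5, and DESeq2 called 1. With sgP2, NR2C1 was called higher and NR5A2 lower, beside 3.42%, and DESeq2 called 1 higher and 2 lower. With sgDual, 10 members were higher and 3 lower, beside 35.6%, and their median log2 fold change was 0.26 against 0.00 over all genes. Without the first or the second sgNC library, 7 and 8 members were called. Against sgP1, sgDual gave 10 higher and 2 lower (38.3% of all genes called), and against sgP2 13 higher and 5 lower (46.4%). Against sgP1, sgP2 gave 1 higher and 3 lower (4.3%). With the replicate number as a block, members called were 1 with sgP1 and 5 with sgP2 against sgNC and 8 with sgP2 against sgP1. The share of all genes was not computed for that block, for DESeq2, for the fits without a library or at an unadjusted p. At a fold of at least 2, 7 members passed with sgDual against sgNC, 5 against sgP1 and 9 against sgP2, beside 9.06%, 6.73% and 10.3% of all genes. No member passed that limit with sgP1 or sgP2 against sgNC or with sgP2 against sgP1, where 0.135%, 1.09% and 0.948% of all genes did.

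**Figure D2:**
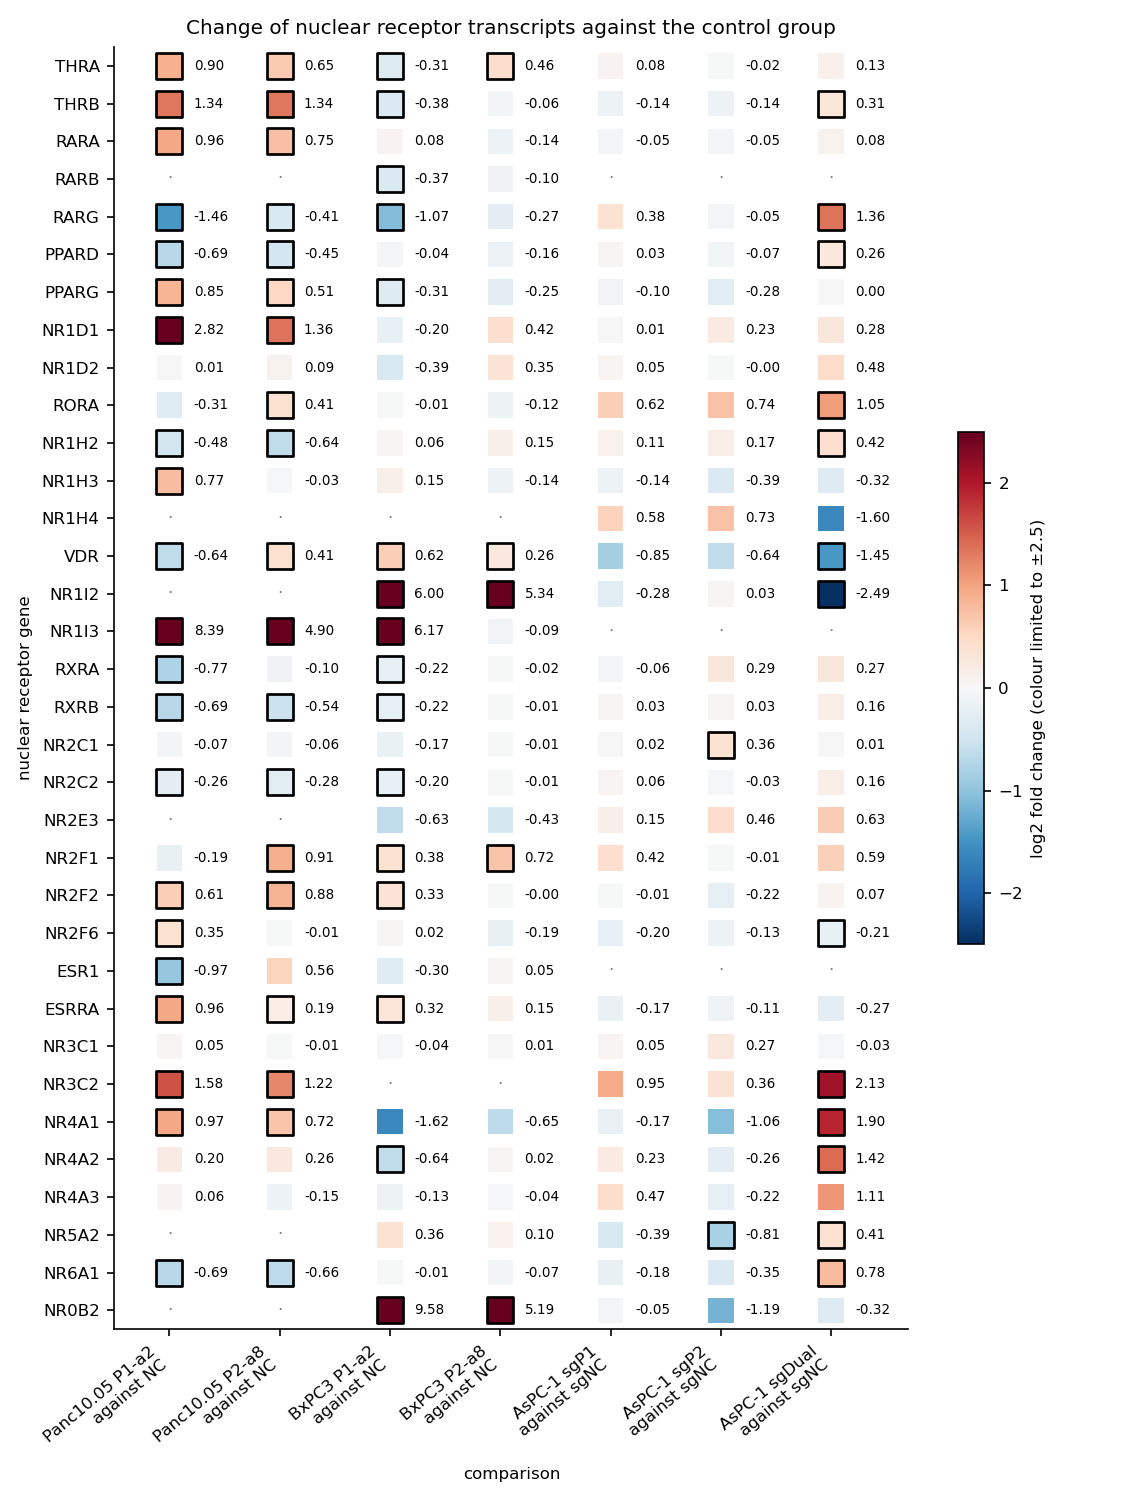
Log2 fold change of each nuclear receptor gene tested, as colour and printed value, in 7 comparisons with the control cells or guide of its line, with a black frame where the adjusted p is under 0.05 and a dot where the gene was not tested. NR0B2 and NR1I2 in BxPC3 and NR1I3 in both induced lines have the largest values, which for NR1I3 and NR0B2 are fitted against controls at the floor, and NR1I2 has the lowest at -2.49 with sgDual in AsPC-1.

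The xenobiotic receptors and NR0B2 had the largest fitted differences among the members in the induced lines. NR1I3, which switches on drug-metabolizing enzymes in liver, lies on chromosome 1 at 161229666 to 161238302, minus strand, on GRCh38. NR1I2, the xenobiotic sensor PXR, lies on chromosome 3 at 119780484 to 119818485, plus strand. Their upstream stretches are shown because these genes were at 0 to 9 counts in the control libraries of the induced lines and rose with induction in at least 1 of them. They are 150 bases each, 5′ to 3′ on the strand of the gene, from RefSeq on GRCh38.p14, ending 1 base before the second annotated start of NR1I2 and 100 bases before the start of NR1I3. Both RefSeq starts lie inside the gene spans given above, which are those of GENCODE. No capitals appear because neither stretch holds the core of an HNF4 site.
NR1I2, chr3:119782560-119782709 (+): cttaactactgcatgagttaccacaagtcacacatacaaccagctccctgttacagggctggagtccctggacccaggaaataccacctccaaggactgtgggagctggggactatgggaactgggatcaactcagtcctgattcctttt
NR1I3, chr1:161238303-161238452 (-): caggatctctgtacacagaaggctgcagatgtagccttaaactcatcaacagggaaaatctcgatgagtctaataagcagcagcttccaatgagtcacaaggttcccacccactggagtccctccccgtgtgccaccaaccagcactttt

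The search for motifs used windows from 250 bases before to 50 after each start. RefSeq promoters were found for 39 of the 43 members, in 92 windows. NR0B2, VDR, NR4A2 and NR2F6 were not matched. The HNF4 core CAAAGTCCA, read on both strands, was in 0 of the 92 and in 0.384% of all 35116 windows. The looser form CAAAGNNCA, which includes the first, was in 3.26% of the members' windows (ESR1, ESR2 and NR2F1) and in 5.28% of all. AGGTCA, the binding site shared by many receptors, was in 17.4% and 13.8%. A match of letters is a description of the sequence and not evidence of binding.

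NR1I3 was at 9.01 and 10.6 CPM (351 and 487 counts) in the Panc10.05 libraries with P1-a2, at 0.919 and 0.817 with P2-a8, and at 0 and 0.0580 (2 counts) in the controls. Both isoforms' libraries lay above both control libraries, and those with P1-a2 above those with P2-a8. Against the floor of 3 counts per library, P1-a2 was at least 123-fold higher and P2-a8 at least 10.9-fold higher than NC. The log2 difference between P1-a2 and P2-a8 was 3.49 ± 0.19 (SE; adjusted p = 1.22e-18, edgeR's quasi-likelihood test). BxPC3 had 3.51 and 3.81 CPM with P1-a2, 0.0858 and 0 with P2-a8 and 0.0744 and 0.0273 in the controls, so that the P1-a2 libraries stood apart from the other 4, which were all at 3 counts or fewer. There P1-a2 was at least 37.9-fold above NC and at least 41.2-fold above P2-a8, and no fold is given for P2-a8 against NC, both at the floor. In AsPC-1, 1 count was found in 1 sgP1E library and none elsewhere.

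NR1I3 shares 661 exon bases, 20% of its own, with TOMM40L on the opposite strand, and the strand setting of the counting is not given in the sources used here. TOMM40L was called higher in the same direction with P1-a2, by 1.496 in Panc10.05 and 0.87 in BxPC3 on the log2 scale. In AsPC-1, where NR1I3 had at most 1 count, TOMM40L was measured at 7.43 to 14.4 CPM. In the Panc10.05 controls, where NR1I3 was at 0 and 0.0580 CPM, TOMM40L was at 14.6 and 14.8 CPM. Whether reads of TOMM40L were counted for NR1I3 was not tested. Genes within 30 kb, looked at after the values of NR1I3 were seen, included APOA2, an apolipoprotein of liver, and FCER1G. APOA2 had at most 1 count in the control libraries of both lines. It was at 260.0 and 234 CPM with P1-a2 and 21.99 and 11.5 with P2-a8 in Panc10.05, and at 11.1 and 15.6 with P1-a2 and 0.429 and 0.582 with P2-a8 in BxPC3. FCER1G had log2 fold changes of 5.31 with P1-a2 and 3.85 with P2-a8 in Panc10.05. In BxPC3 it was at 2.698 and 2.65 CPM with P1-a2 and 0.172 and 0.459 with P2-a8, with 1 and 2 counts in the controls.

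NR1I2 was at 0 counts in all 6 Panc10.05 libraries. In BxPC3 it was at 13.05 and 17.6 CPM with P1-a2, at 8.87 and 10.6 with P2-a8 and at 0.335 and 0.164 in the controls, so both induced groups lay far above the controls and apart from each other. The log2 fold change was 5.997 ± 0.29 with P1-a2 (adjusted p = 1.37e-07) and 5.34 ± 0.30 with P2-a8 (2.12e-06). The difference between isoforms, 0.66 ± 0.17 (adjusted p = 0.0157), was lost without the second P1-a2 library (adjusted p = 0.144) and without the first P2-a8 library.

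In AsPC-1, NR1I2 was expressed with the control guide, at 81.3 and 93.0 CPM. It was at 12.8 and 17.7 with sgDual2 and at 14.9 and 16.6 with sgDual3, and all 4 lay below every other library of the line. The change with sgDual was -2.49 ± 0.21 (adjusted p = 4.18e-06). With sgP1E it was at 86.9 and 93.8 CPM and with sgP1J at 51.5 and 53.7. The guides against P1 thus differed, by 0.78 ± 0.11 on the log2 scale (adjusted p = 0.000558). The 4 libraries with guides against P2 were at 81.1 to 96.3 CPM and overlapped sgNC. NR1I2 shares 4.07% of its exon bases with AC069444.2 on the same strand.

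NR0B2 (SHP), which lacks a DNA-binding domain and represses other receptors, is a known target of FXR. Its BxPC3 libraries were at 2.85 and 2.89 CPM (91 and 107 counts) with P1-a2, at 0.114 and 0.153 (4 and 5 counts) with P2-a8 and at 0 in both controls. P1-a2 was at least 29.7-fold above NC and stood apart from the other groups. P2-a8 was at least 1.38-fold above NC, and its call (adjusted p = 0.0461) was lost when any 1 of the 4 libraries was left out and in DESeq2, with adjusted p up to 0.23. In Panc10.05 no library was above 9 counts. AsPC-1 had 7.67 and 13.3 CPM with sgNC and 5.45 to 10.97 with sgDual, which overlapped. Over all libraries of that line NR0B2 ran from 2.11 to 22.6 CPM, with replicate 2 above replicate 1 for all 7 guides. The log2 difference of sgP1E from sgP1J was -2.16 ± 0.67 and not called (adjusted p = 0.0600, edgeR's quasi-likelihood test).

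The enzymes and transporters under PXR and CAR moved partly. In Panc10.05 with P1-a2, 2 of 3 tested list members rose and 1 fell (100% called, beside 62% of all genes). With P2-a8 in that line 1 rose and 1 fell (66.7%, beside 46.2%). In BxPC3 with P1-a2, 2 of 8 tested list members rose and 1 fell (37.5% called, beside 32% of all genes). CYP2B6, a cytochrome P450 that is a classical CAR target, rose by 1.62 ± 0.36 with P1-a2 and by 1.54 ± 0.36 with P2-a8. In AsPC-1 with sgDual, 2 of 7 rose and 3 fell (71.4%, beside 35.6%), with a median of -0.65. The transporter ABCC2 fell by 1.88 and CYP2B6 fell by 1.66, while CYP3A5 rose by 0.66. All target lists here were written from general knowledge with earlier results of these data known, and their counts are to be read beside the shares of all genes given above.

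NR1H4 (FXR), the bile acid receptor, was barely detected. AsPC-1 was the only line in which it passed the filter, with 1.23 CPM at most, 0.412 and 0.385 with sgNC and 0 to 0.260 with sgDual. It was called lower with sgDual against sgP1 (-2.18 ± 0.68) and sgP2 (-2.33 ± 0.69), although the groups overlapped, and both calls were lost without sgP1E or sgP2D (adjusted p = 0.308 and 0.24), the guides with its higher levels, and without sgDual3. Of 6 FXR target genes tested with sgDual against sgNC, none rose and 2 fell (33.3% called, beside 35.6% of all genes). Among the falls was the proteoglycan SDC1, by 0.85.

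**Figure D3:**
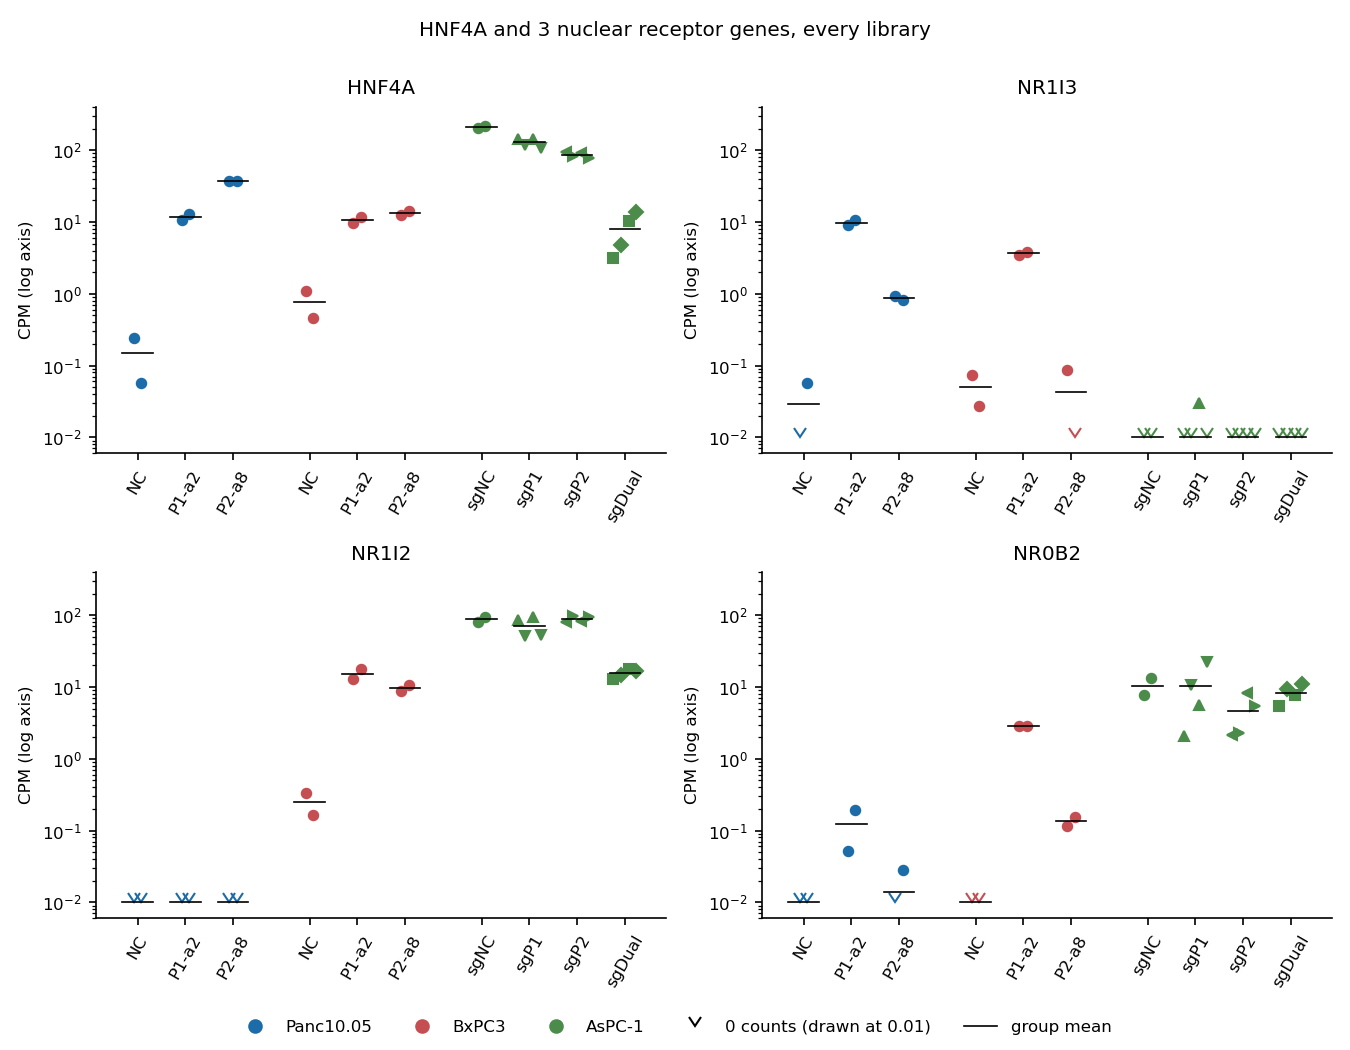
CPM of HNF4A, NR1I3, NR1I2 and NR0B2 on a log axis in all 26 libraries of Panc10.05, BxPC3 and AsPC-1, with 1 point per library, a line at the group mean, and open arrows at the bottom for libraries with 0 counts. NR1I3 is at 9.01 and 10.6 CPM with P1-a2 in Panc10.05, NR1I2 is at 0 counts in every Panc10.05 library, and NR0B2 in BxPC3 is at 2.85 and 2.89 CPM with P1-a2.

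The sterol receptors changed in Panc10.05. NR1H3 (LXRα) was at 19.0 and 17.0 CPM with P1-a2, at 10.08 and 10.6 with P2-a8 and at 10.5 and 10.6 in the controls, so only P1-a2 stood above (0.77 ± 0.10). NR1H2 (LXRβ) fell with both, by 0.48 and 0.64, to 126 and 132 CPM with P1-a2 and 113 and 118 with P2-a8 from 177 and 183. Of 9 LXR target genes tested with P1-a2, 7 fell and 2 rose (100% called, beside 62% of all genes), with a median of -1.42. NR1H3, itself on the list, is a riser. The cholesterol exporters ABCA1 and ABCG1 fell by 2.35 and 2.25, and SREBF1, the master gene of fatty acid synthesis, fell by 2.33. With P2-a8, 4 fell and 2 rose (66.7%, beside 46.2%), and ABCA1 fell by 1.29. BxPC3 had 1 of 9 in each direction with P1-a2 (22.2%, beside 32%), and SREBF1 fell by 0.62. In AsPC-1 with sgDual, NR1H2 rose by 0.42 ± 0.08 and NR1H3 was not called (103 and 123 CPM with sgNC, 85.5 to 96.5 with sgDual). There 2 of 11 targets rose and 4 fell (54.5%, beside 35.6%).

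RARG, the retinoic acid receptor γ of epithelia, differed in opposite directions under induction and repression. It lies on chromosome 12 at 53210567 to 53232980, minus strand. It is shown because its change with P1-a2 was called in both induced lines and with sgDual in AsPC-1. The stretch ends 48 bases before the start annotated in RefSeq (GRCh38.p14). That start and the stretch lie inside the gene span given above, which is that of GENCODE. The stretch holds no HNF4 core, so no base is in capitals. The stretch is 80% G and C.
RARG, chr12:53232257-53232406 (-): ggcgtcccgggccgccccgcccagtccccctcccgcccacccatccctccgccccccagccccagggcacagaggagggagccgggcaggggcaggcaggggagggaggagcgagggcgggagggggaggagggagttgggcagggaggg

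The Panc10.05 controls held RARG at 70.2 and 73.7 CPM, P2-a8 at 50.9 and 57.8 and P1-a2 at 27.7 and 24.8, in 3 steps with no overlap. BxPC3 had 217 and 207 CPM in the controls, 178 and 174 with P2-a8 and 110 and 91.1 with P1-a2, in the same order. The change with P1-a2 was -1.46 ± 0.08 in Panc10.05 (adjusted p = 1.31e-20) and -1.07 ± 0.08 in BxPC3 (3.84e-06). P2-a8 gave -0.41 ± 0.07 (8.02e-06) in Panc10.05 and -0.27 in BxPC3, where the adjusted p of 0.0712 missed the threshold. P1-a2 was also below P2-a8, by -1.05 ± 0.08 and -0.80 ± 0.08.

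In AsPC-1, RARG was at 35.9 and 38.9 CPM with sgNC, at 102 and 101 with sgDual2 and at 88.7 and 92.8 with sgDual3. Every sgDual library lay above every other library of the line. The change was 1.361 ± 0.09 (adjusted p = 1.52e-07) against sgNC and 1.41 ± 0.07 against sgP2. With sgP1 it was at 42.9 to 53.1 CPM, above both sgNC libraries but not called (0.38, adjusted p = 0.0969), and with sgP2 at 34.6 to 38.8.

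RARA, the retinoic acid receptor α, rose in Panc10.05 from 14.2 and 16.1 CPM to 30.9 and 27.8 with P1-a2 and to 25.5 and 25.3 with P2-a8 (0.96 ± 0.09 and 0.75 ± 0.09), and RARA-AS1 shares 11.8% of its exons. Its response differed between the lines, by 0.89 ± 0.13 for each isoform. RARB, a retinoid-inducible tumour suppressor, was at 0 in all Panc10.05 libraries and at most 1 count in AsPC-1. In BxPC3 it was at 8.14 and 7.98 CPM in the controls and 6.40 and 6.11 with P1-a2, and that call (-0.37, adjusted p = 0.0472) was lost without any 1 of the 4 libraries.

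Of 10 retinoic acid targets tested with sgDual in AsPC-1, 7 rose and none fell (70% called, beside 35.6% of all genes). Their median was 1.65. The retinoic acid hydroxylase CYP26B1 rose by 4.05 ± 0.45, from a mean of 0.607 CPM, the retinol importer STRA6 by 2.72 ± 0.40, the retinoid carrier CRABP2 by 2.33 ± 0.57 and RARRES1 by 2.25 ± 0.37. In BxPC3 with P1-a2 none of 10 rose and 4 fell (40%, beside 32%). Among them were CRABP2 by 1.163, PLAAT4 by 1.06 and RARB, itself on the list. In Panc10.05 with P1-a2 3 of 6 rose and 1 fell (66.7%, beside 62%). DHRS3 rose by 1.46, CYP26B1 by 1.34 and the transglutaminase TGM2 by 1.05 on the log2 scale, and PLAAT4 fell by 4.02.

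The retinoid X receptors are the shared partners of the receptors above. RXRA was at 66.5 and 62.6 CPM in the Panc10.05 controls and at 36.0 and 39.7 with P1-a2, a fall of 0.77 ± 0.07, and at 60.2 in both P2-a8 libraries, where it was not called. BxPC3 also had lower RXRA with P1-a2 (-0.22 ± 0.05), and the lines' responses differed by -0.54 ± 0.09. RXRB fell with both isoforms in Panc10.05, by 0.69 and 0.54, and with P1-a2 in BxPC3, by 0.22. In AsPC-1 RXRA was not called with sgDual against sgNC but was higher than with sgP1 (0.33 ± 0.10), whose guides differed from each other by 0.42 ± 0.08.

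VDR, the vitamin D receptor, went different ways in the lines. In Panc10.05 it was at 46.2 and 41.6 CPM in the controls, at 27.4 and 28.8 with P1-a2 and at 56.6 and 60.04 with P2-a8, so the isoforms lay on opposite sides of the controls (-0.64 ± 0.07 and 0.41 ± 0.07). In BxPC3 it was at 61.4 and 63.1 CPM in the controls, 93.6 and 97.3 with P1-a2 and 74.0 and 75.0 with P2-a8, with both groups above the controls. The change with P1-a2 was 0.62 ± 0.06 (adjusted p = 1.38e-05). The lines' responses to P1-a2 differed by -1.25 ± 0.10 (adjusted p = 6.45e-10).

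In AsPC-1, VDR differed between guides of 1 target. It was at 62.2 and 59.2 CPM with sgNC, 21.8 and 23.1 with sgP1E and 49.4 and 40.3 with sgP1J. It was at 28.3 and 29.4 with sgP2D, 46.8 and 51.5 with sgP2G and 19.7 to 25.5 with the sgDual guides. All 12 libraries with a guide against HNF4A lay below both sgNC libraries, and sgP1E lay within the range of sgDual. The sgP1E libraries were below sgP1J by -1.001 ± 0.10 (adjusted p = 1.50e-05) and the sgP2D libraries below sgP2G by -0.77 ± 0.10 (0.000577). The change with sgDual was -1.45 ± 0.32 (adjusted p = 0.00451), while those with sgP1 (-0.85, 0.44) and sgP2 (-0.64, 0.344) were not called in a fit that pools both guides. Of the vitamin D targets tested in Panc10.05, 3 of 6 rose with P1-a2 (50% called, beside 62% of all genes). With P2-a8 5 of 6 rose (83.3%, beside 46.2%). G0S2 rose by 4.90 with P1-a2 and 4.01 with P2-a8. In BxPC3, 1 of 6 rose with P1-a2 and none fell (16.7%, beside 32%), and with P2-a8 none rose and 1 fell (16.7%, beside 6.99%). In AsPC-1, 0 of 5 was called with sgDual, beside 35.6% of all genes, and 2 had an unadjusted p under 0.05.

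Counts of members called between the guides of 1 target were 5 higher and 1 lower for sgP1E against sgP1J, beside 14.5% of all genes, 1 lower (VDR) for sgP2D against sgP2G, beside 1.69%, and none for sgDual2 against sgDual3, beside 0.883%. DESeq2 called 4 higher and 2 lower for the P1 guides. For the dual guides edgeR's quasi-likelihood test gave 3 at an unadjusted p under 0.05 and DESeq2 called none. Shares of all genes were not computed for DESeq2 or at an unadjusted p. The 6 for the P1 guides are VDR, NR1I2, RXRA, NR2C1, NR2F1 and NR4A3.

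**Figure D4:**
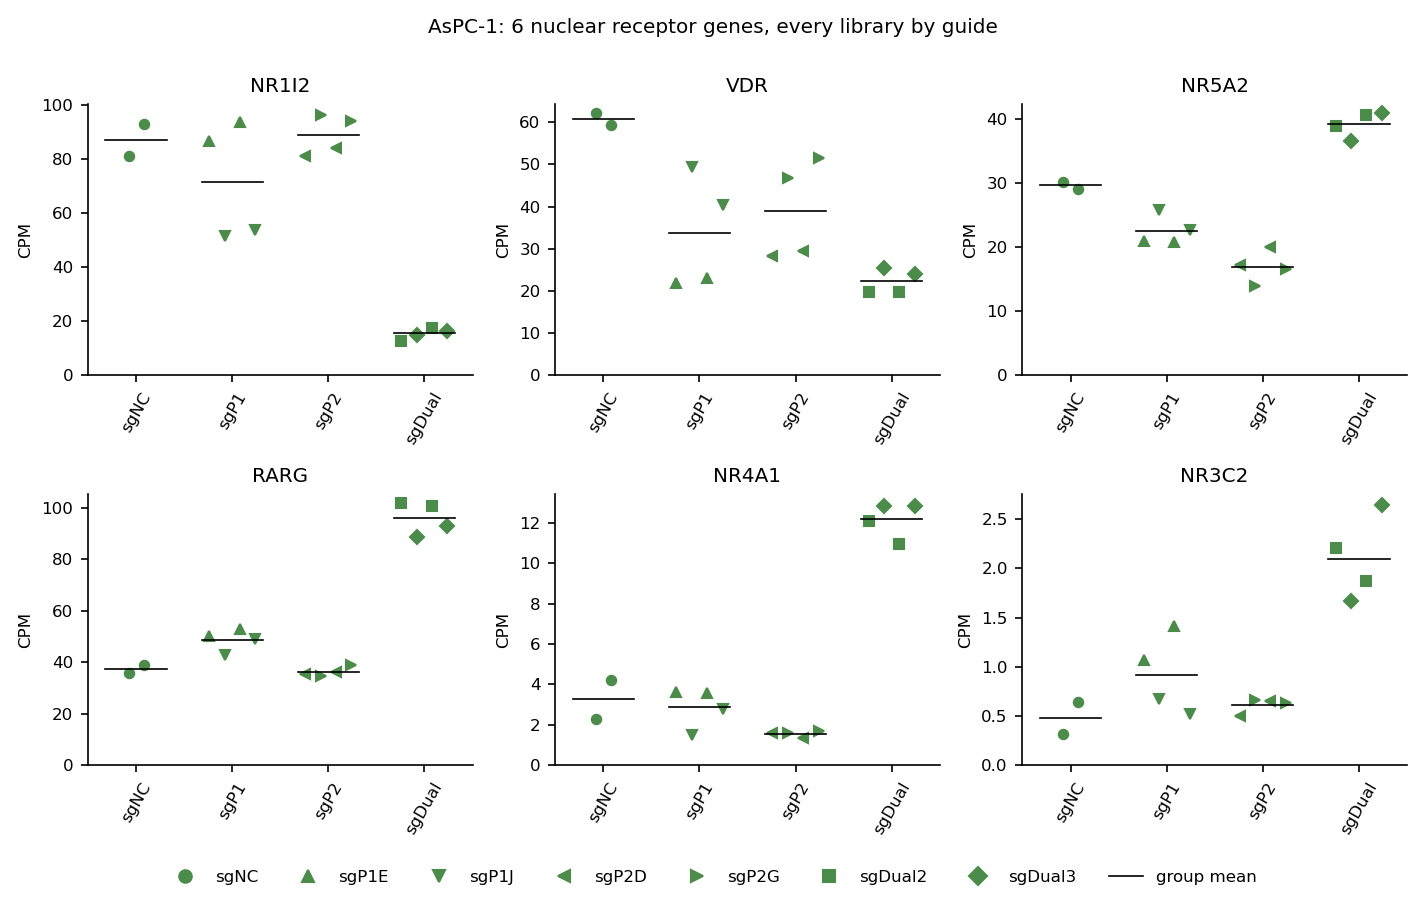
CPM of NR1I2, VDR, NR5A2, RARG, NR4A1 and NR3C2 in the 14 AsPC-1 libraries, with 1 point per library, its shape giving the guide, and a line at the group mean. NR1I2 is lowest and NR5A2, RARG, NR4A1 and NR3C2 are highest in the sgDual libraries, and the P1 guides differ from each other in VDR (21.8 and 23.1 against 49.4 and 40.3 CPM).

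Among the PPAR genes, PPARG, which drives adipocyte genes and lipid uptake, rose in Panc10.05 from 8.98 and 8.92 CPM to 16.4 and 15.8 with P1-a2 and 12.9 and 12.6 with P2-a8. It fell in BxPC3 with P1-a2, from 28.7 and 29.1 to 22.6 and 24.0. None of these groups overlapped the controls, and the lines' responses differed by 1.17 ± 0.13 for P1-a2 and 0.76 ± 0.13 for P2-a8. In AsPC-1 PPARG was at 82.6 to 117 CPM in all 14 libraries. PPARD fell with both isoforms in Panc10.05, from 160 and 145 CPM to 90.9 and 98.7 (-0.69 ± 0.07) and 104 and 120 (-0.45 ± 0.07).

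Of 9 genes of fatty acid use under the PPARs tested in Panc10.05, 6 rose with P1-a2 and none fell (66.7% called, beside 62% of all genes), and with P2-a8 6 rose and 1 fell (PLIN2; 77.8%, beside 46.2%). In BxPC3 7 of 10 rose with P1-a2 (beside 32% of all genes) and 3 with P2-a8 (beside 6.99%), and none fell. ANGPTL4, an inhibitor of lipoprotein lipase, rose by 4.37 and 3.68 in Panc10.05 and by 3.21 and 1.25 in BxPC3. The carnitine transferase CPT1A rose by 1.73 and 1.55 in Panc10.05, and PDK4, a brake on glucose oxidation, by 1.74 and 1.39 in BxPC3. With sgDual in AsPC-1 5 of 11 rose and 3 fell (72.7% called, beside 35.6% of all genes). The lipid droplet gene CIDEC fell by 3.42 ± 0.15 and CREB3L3 by 1.23 ± 0.10, while PDK4 rose by 1.21. PPARA is not among the members.

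**Figure D5:**
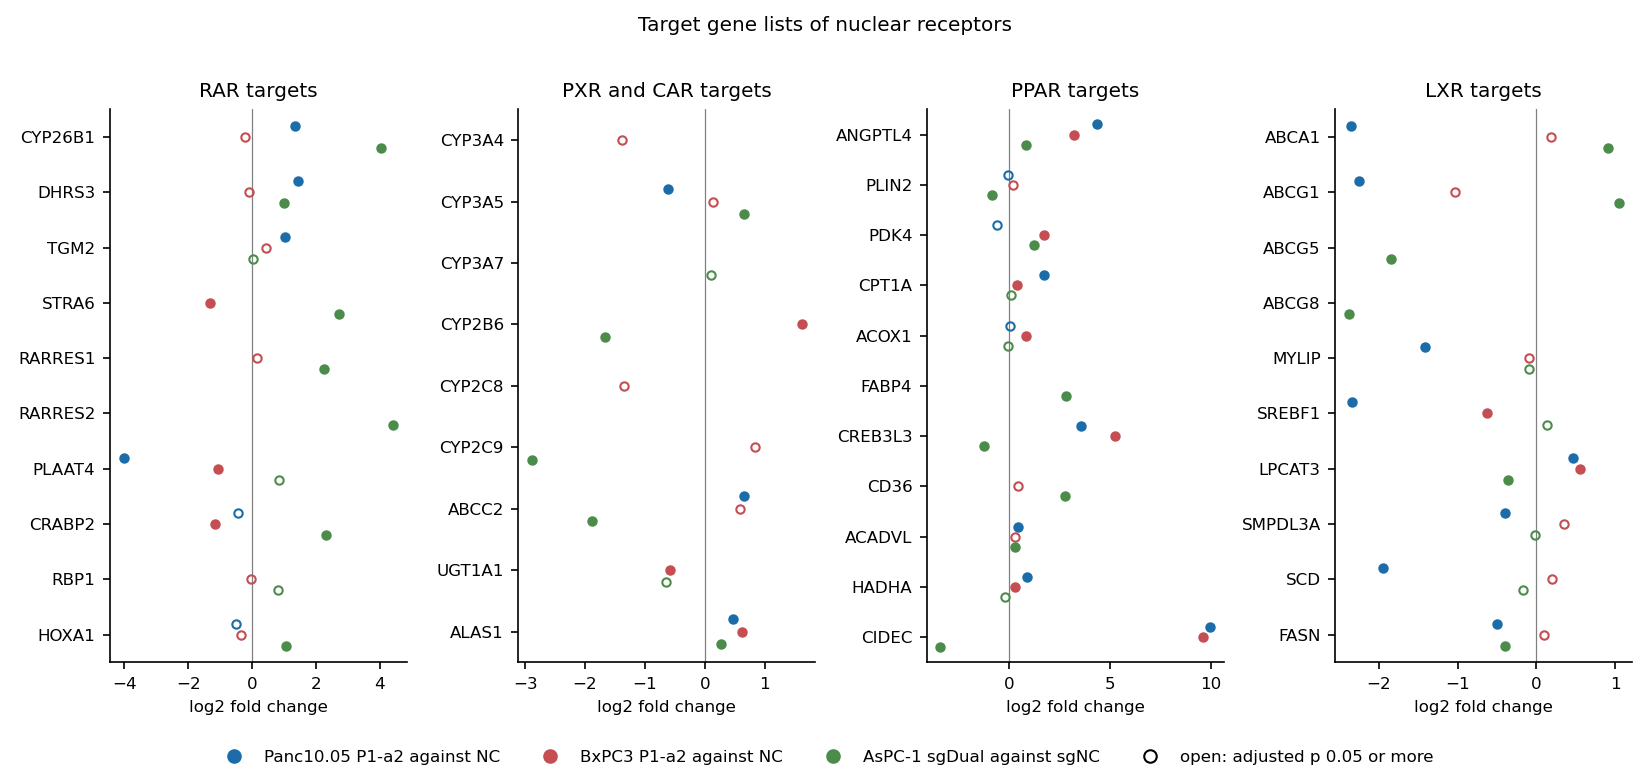
Log2 fold change of the tested genes of the RAR, PXR and CAR, PPAR and LXR target lists, without RARB and NR1H3, with P1-a2 in Panc10.05 and BxPC3 and with sgDual in AsPC-1, filled where the adjusted p is under 0.05 and open where it is not. CYP26B1 is at 4.05 with sgDual in AsPC-1, and ABCA1, ABCG1 and SREBF1 lie left of 0 with P1-a2 in Panc10.05.

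The thyroid hormone receptors and the circadian receptor NR1D1 rose in Panc10.05 with both isoforms. NR1D1 (REV-ERBα), a repressor in the core of the clock, was at 7.30 and 7.36 CPM in the controls, 17.3 and 20.4 with P2-a8 and 51.7 and 51.8 with P1-a2, again in 3 separate steps (2.82 ± 0.09 with P1-a2 and 1.356 ± 0.10 with P2-a8). It shares 9.49% of its exon bases with THRA on the opposite strand. THRA, the thyroid hormone receptor α, rose from 8.98 and 7.36 CPM to 15.0 and 15.5 with P1-a2 and 12.01 and 13.8 with P2-a8. THRB, the β receptor, rose from 6.36 and 6.29 to 16.5 and 15.5 with P1-a2 and to 15.2 and 17.0 with P2-a8, by 1.34 ± 0.11 in each. NR1D2, the paralogue of NR1D1, was at 55.9 to 62.3 CPM in all 6 libraries and was not called.

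In BxPC3 these genes moved otherwise. THRB fell with P1-a2, from 33.5 and 35.6 CPM to 27.1 and 26.0 (-0.38 ± 0.08), and THRA fell with P1-a2 (-0.31 ± 0.08) and rose with P2-a8 (0.46 ± 0.08), from 23.2 and 22.6 CPM to 18.0 and 18.8 and to 31.9 and 31.1. The lines' responses to P1-a2 differed by 1.73 ± 0.13 for THRB, 1.22 ± 0.15 for THRA and 3.04 ± 0.56 for NR1D1. The call for THRA with P1-a2 was lost without either control library or the first P1-a2 library (adjusted p up to 0.077), and that with P2-a8 without the second control library (0.0777). Of 4 thyroid hormone targets tested with P1-a2 in Panc10.05, 3 fell and none rose (75% called, beside 62% of all genes). The corepressor HR fell by 2.24.

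Outside Panc10.05 the circadian receptors differed between the replicate libraries of each group. NR1D1 in BxPC3 was at 43.1 and 71.0 CPM in the controls, 36.8 and 62.6 with P1-a2 and 59.1 and 94.3 with P2-a8, with replicate 2 above replicate 1 in all 3 groups. In AsPC-1 replicate 1 was above replicate 2 with all 7 guides, at 45.4 to 57.6 against 26.6 to 41.1 CPM, and NR1D2 had the same order. Without a term for the replicate, neither was called against the control guide or NC in these lines. With the replicate number as a block, NR1D1 and NR1D2 were both called in BxPC3, lower with P1-a2 (adjusted p = 0.0059 and 0.00227, edgeR's quasi-likelihood test) and higher with P2-a8 (9.4e-06 and 0.00395), and both were called higher with sgDual (0.0381 and 0.00132). Over all AsPC-1 members tested, 15 of 31 (48.4%) had replicate 1 on the same side of replicate 2 with every guide, against 18.5% of all genes tested. In BxPC3 the shares were 37.5% and 37.9%. Of the clock genes in the same loop, 5 of 15 rose and 4 fell with P1-a2 in Panc10.05 (60% called, beside 62% of all genes). With P1-a2 in BxPC3 1 of 14 rose (7.14%, beside 32%). With sgDual 3 of 14 rose (21.4%, beside 35.6%), among them DBP by 1.13.

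RORA, an activator of the clock loop, was low in every line. It was at 1.24 and 1.03 CPM with sgNC, 2.55 and 1.82 with sgDual2 and 2.77 and 2.26 with sgDual3. The sgDual libraries lay above sgNC but overlapped those of sgP1J and sgP2, at 1.46 to 2.60. The call with sgDual (1.05 ± 0.32, adjusted p = 0.0183) was lost without either sgNC library or without sgDual3, at adjusted p up to 0.126.

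Of the steroid receptors, NR3C1, the glucocorticoid receptor, was among the steadiest members, at 104 to 151 CPM in AsPC-1, 124 to 138 in Panc10.05 and 65.1 to 71.9 in BxPC3. Its 1 call was sgDual against sgP2 (-0.30 ± 0.08). NR3C2, the mineralocorticoid receptor, was at 0.552 and 0.493 CPM in the Panc10.05 controls, 1.62 and 1.54 with P1-a2 and 1.26 and 1.18 with P2-a8, with no overlap (1.58 ± 0.30 and 1.22 ± 0.31). In AsPC-1 it was at 0.317 and 0.642 CPM with sgNC, 2.21 and 1.88 with sgDual2 and 1.67 and 2.64 with sgDual3. All sgDual libraries lay above all others, and the change was 2.13 ± 0.38 (adjusted p = 0.000627). ESR1, the estrogen receptor α, was at 0 in all AsPC-1 libraries and between 0.282 and 1.41 CPM elsewhere. ESRRA, which needs no estrogen, rose with P1-a2 from 92.9 and 86.0 CPM to 168 and 180 in Panc10.05 (0.96 ± 0.06) and from 137 and 136 to 166 and 174 in BxPC3 (0.32 ± 0.06). TRMT112 shares 9.37% of its exon bases on the opposite strand. Glucocorticoid targets gave 1 rise and 3 falls of 8 with P1-a2 in Panc10.05 (50% called, beside 62% of all genes). They gave 1 of each of 8 in BxPC3 (25%, beside 32%) and 2 rises of 7 with sgDual (28.6%, beside 35.6%), TSC22D3 by 1.17. Estrogen targets gave 4 rises of 5 with P1-a2 in Panc10.05 (80%, beside 62%), PDZK1 by 5.58. In BxPC3 they gave 1 rise and 2 falls of 6 (50%, beside 32%).

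The NR4A receptors are immediate early genes that act without a classical ligand. NR4A1 (NUR77) in AsPC-1 was at 2.28 and 4.24 CPM with sgNC, 12.1 and 10.9 with sgDual2 and 12.9 and 12.8 with sgDual3. The sgP1 libraries were at 1.49 to 3.65 and those of sgP2 at 1.33 to 1.72, so that sgDual stood alone above the rest. The change was 1.90 ± 0.30 (adjusted p = 0.00023) against sgNC and 2.96 ± 0.24 against sgP2. AC025259.3, on the opposite strand, shares 10.3% of the exon bases of NR4A1. NR4A2 (NURR1) was at 13.3 and 14.5 CPM with sgNC and at 39.3, 44.0, 29.7 and 36.0 with sgDual, where no other library exceeded 19.2, a change of 1.42 ± 0.17 (adjusted p = 2.52e-05). Of 14 immediate early genes on a separate list, 9 rose and none fell with sgDual (64.3% called, beside 35.6% of all genes). FOSB rose by 1.72 and ATF3 by 1.48.

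In the induced lines the NR4A genes did not move together. NR4A1 rose in Panc10.05 from 9.27 and 8.11 CPM to 16.2 and 18.0 with P1-a2 and 13.6 and 15.2 with P2-a8 (0.97 ± 0.11 and 0.72 ± 0.11). In BxPC3 it was at 23.1 and 50.4 CPM in the controls and 10.8 and 13.2 with P1-a2, which did not overlap but were not called (-1.62 ± 0.54, adjusted p = 0.118). The lines' responses differed by 2.61 ± 0.60 (adjusted p = 0.0155), a call lost without the second Panc10.05 control or the first BxPC3 P1-a2 library (0.0587 at the highest). NR4A2 fell in BxPC3 with P1-a2, by 0.64 ± 0.14. Immediate early genes of the list gave 8 rises and 4 falls of 14 with P1-a2 in Panc10.05 (85.7% called, beside 62% of all genes). In BxPC3 they gave 1 and 2 (21.4%, beside 32%).

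NR5A2 (LRH-1) was an AsPC-1 gene, under 1 CPM in all other libraries. It was at 30.3 and 29.1 CPM with sgNC, 21.0 and 20.9 with sgP1E, 25.9 and 22.7 with sgP1J, 17.3 and 20.1 with sgP2D and 13.9 and 16.6 with sgP2G. With sgDual2 it was at 38.9 and 40.7 CPM and with sgDual3 at 36.6 and 41.1, above sgNC, so the single-promoter and the dual guides lay on opposite sides of the control. The change was -0.81 ± 0.12 with sgP2 (adjusted p = 0.00246), 0.41 ± 0.12 with sgDual (0.0156) and 1.21 ± 0.10 for sgDual against sgP2 (2.73e-07). The call of sgDual against sgNC was lost without either sgNC library or without sgDual2 (up to 0.0962). NR6A1, the germ cell nuclear factor, was at 6.94 and 9.15 CPM with sgNC, 14.8 and 15.2 with sgDual2 and 12.2 and 13.2 with sgDual3 (0.78 ± 0.21), and fell in Panc10.05 with both isoforms, by 0.69 and 0.66. Its call with sgDual against sgNC was lost without the first sgNC library (adjusted p = 0.151) or without sgDual2.

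The COUP transcription factors, NR2F1 and NR2F2, bind sites much like those of HNF4 and often oppose it. NR2F1 is shown because its first start has the looser HNF4 core upstream, marked in capitals. The core begins 42 bases before the start (RefSeq, GRCh38.p14, plus strand), and the stretch ends 1 base before the start. ESR1 also had the looser core upstream of a start and is not printed.
NR2F1, chr5:93583072-93583221 (+): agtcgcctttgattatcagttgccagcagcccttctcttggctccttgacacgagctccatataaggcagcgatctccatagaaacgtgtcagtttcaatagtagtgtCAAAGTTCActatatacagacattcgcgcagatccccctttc

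NR2F1 was at 2.09 and 2.55 CPM in the Panc10.05 controls, 2.13 and 1.91 with P1-a2 and 4.21 and 4.45 with P2-a8, so only P2-a8 stood apart (0.91 ± 0.18). In BxPC3 it was at 12.05 and 10.8 CPM in the controls, 14.7 and 14.9 with P1-a2 and 19.96 and 17.6 with P2-a8, in 3 steps (0.38 ± 0.11 and 0.72 ± 0.11). The smaller change, with P1-a2, lost its call without the second control or second P1-a2 library (adjusted p up to 0.179). NR2F1-AS1 on the opposite strand shares 3.66% of its exon bases. NR2F2 rose in Panc10.05 from 83.3 and 85.7 CPM to 129 in both P1-a2 libraries and 153 and 157 with P2-a8 (0.61 ± 0.06 and 0.88 ± 0.06). In BxPC3 it rose with P1-a2 by 0.33 ± 0.06 and was at 129 and 121 CPM with P2-a8 against 131 and 120 in the controls. AsPC-1 had 56.8 to 91.7 CPM and no call.

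Across members, the response to P1-a2 differed between Panc10.05 and BxPC3 for 19 of 33 members tested in the joint fit, 11 higher and 8 lower in Panc10.05, where 36.4% of 19372 genes differed. For P2-a8 it differed for 9, 5 higher and 4 lower, beside 23.5%. NR1I3 was among the latter, but its BxPC3 groups and Panc10.05 controls were at the floor, so the size of that difference is not given, and the call was lost without the first control library of either line or the second P2-a8 library of BxPC3 (up to 0.257). The doses of doxycycline, the control constructs and the tables differ between the lines and cannot be told apart from the lines.

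Of 25 coactivators and corepressors, all of which passed the filter in Panc10.05, 10 rose and 5 fell with P1-a2 (60% called, beside 62% of all genes) and 12 rose and 6 fell with P2-a8 (72%, beside 46.2%). TBL1X, part of the NCoR complex, rose by 3.88 and 3.25 and PPARGC1A (PGC-1α), a coactivator of mitochondrial genes, by 2.67 and 1.89. BxPC3 had 2 of 24 higher and 6 lower with P1-a2 (33.3%, beside 32%). With sgDual 6 of 25 rose and 8 fell (56%, beside 35.6%), the demethylase KDM1A by 1.85 ± 0.13 and CITED2 by 1.04 ± 0.08 among the risers. KDM1A was at 367 to 536 CPM in the sgDual libraries and at 115 to 132 in the other 10.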

How the data were processed

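The values are raw counts per gene, whole numbers without normalization, deposited by the authors in 1 table per cell line. Per the submitters' processing notes, cutadapt 1.16, STAR 2.7.9a, featureCounts 1.6.3, DESeq2 1.36.0 and GRCh38 were used; their order, the annotation and the strand setting are not given in the sources used here. Symbols and exon lengths came from the reference tables (GENCODE v29, GRCh38). In R 4.3.3, edgeR 4.0.16 kept genes with filterByExpr, scaled libraries by the trimmed mean of M-values and fitted all groups of a line with the robust quasi-likelihood test. Guides were compared in a fit with a group per guide, and the lines in a joint fit with an interaction contrast. DESeq2 1.42.0 was an alternative. The test was tried on simulated counts with the same spread for every gene and no guide or replicate effect. Only genes well above the floor were changed there, so it does not cover members near the floor or differences between guides. A group with at most 3 counts in every library is at the floor, which covers counting error only. The members, the 12 gene lists and the tests were chosen with earlier results of these data known. Members described by name are 11 chosen for their role, those that changed at least 2-fold with an adjusted p under 0.05 and a mean of at least 1 CPM in some comparison, and others that complete their subfamily. Between replicates, a chi-square statistic over genes was 5.08 to 24.07 times its degrees of freedom, so no library was treated as a copy.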

Additional observations from a re-analysis of the deposited data

Results flagged for a closer look

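In a set of 4 libraries, a value is far from the rest where its gap to the nearest exceeds the critical share of the range in Dixon's test. Of 82 combinations of member and AsPC-1 group, NR2C1 with sgP2 did so: the second sgP2G library was at 36.9 CPM and the others at 34.7 to 34.9. Chance gives about 1 in 20.

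Differences between the responses of Panc10.05 and BxPC3, as log2 fold changes of the first minus the second, passed the interaction test for P1-a2 in 19 members. They were positive for NR1D1 (3.04), NR4A1 (2.61), THRB (1.73), THRA (1.22), PPARG (1.17), RARA (0.89), NR4A2 (0.86), ESRRA (0.65), NR1H3 (0.63), NR2F6 (0.34) and NR2F2 (0.29). They were negative for VDR (-1.25), NR6A1 (-0.67), PPARD (-0.64), NR2F1 (-0.56), RXRA (-0.54), NR1H2 (-0.53), RXRB (-0.46) and RARG (-0.37). RARG fell in both lines, more in Panc10.05, a difference lost without the second Panc10.05 or the first BxPC3 library with P1-a2 (adjusted p up to 0.11). The differences of NR2F1 and NR6A1 were also lost without single libraries (up to 0.196 and 0.0786). For P2-a8 the 9 members were NR1I3 (fitted at 4.97 with both BxPC3 groups and the Panc10.05 controls at the floor, so no measured size), THRB (1.41), RARA (0.89), NR2F2 (0.88), PPARG (0.76), NR1H2 (-0.79), NR6A1 (-0.59), RXRB (-0.53) and PPARD (-0.29).

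Guides against 1 promoter differed in AsPC-1. Between sgP1E and sgP1J the log2 difference was 1.63 for NR4A3, 0.86 for NR2F1, 0.78 for NR1I2, 0.42 for RXRA, 0.28 for NR2C1 and -1.001 for VDR. Between sgP2D and sgP2G it was -0.77 for VDR. HNF4A, the target, was at 109 to 146 CPM over the 4 sgP1 libraries and at 76.7 to 93.9 over the 4 sgP2 libraries.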

How the results depend on the processing

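Of 175 member calls over all comparisons, 116 were kept under every alternative run and 59 were lost under at least 1. No call changed sign. Scaling by total counts or by DESeq2's factors kept the number of members called within 1.5 times in the comparisons run, except that DESeq2 called 1 with sgP1 against sgNC where edgeR called none. With a fold of at least 2 required as well, members called were 5 (P1-a2), 4 (P2-a8) and 6 (P1-a2 against P2-a8) in Panc10.05, 4, 2 and 2 in BxPC3, and 0 (sgP2), 7 (sgDual), 0 (sgP2 against sgP1), 5 (sgDual against sgP1) and 9 (sgDual against sgP2) in AsPC-1. Without a filter on low counts 1 was called with sgP2. With only the 2 groups in the fit, 4 were called with sgP2 and 1 with sgP2 against sgP1. With a group per guide, 3 were called with sgP1, 5 with sgP2 and 8 with sgP2 against sgP1. The cause of these differences was not tested, apart from the stricter limit itself.

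With the replicate number as a block, members called were 12 in place of 5 for P2-a8 against NC and 19 in place of 12 for P1-a2 against P2-a8 in BxPC3, and 1, 5 and 8 in place of 0, 2 and 4 for sgP1, sgP2 and sgP2 against sgP1. Shares of all genes called were not computed for the block or the other alternative fits, so these counts are not results about the receptors. The replicate block also called NR1D1 and NR1D2 in BxPC3 and with sgDual. The labels do not say what a number marks. Deviations from group means of same-numbered libraries correlated at -0.0119 to 0.00733 in Panc10.05, 0.0727 to 0.131 in BxPC3 and 0.0772 to 0.339 in AsPC-1, where pairs among sgNC and the single-promoter guides were at 0.217 to 0.339 and pairs with a sgDual guide at 0.0772 to 0.142. The fit without the block was kept because not every pair of a line exceeded 0.1 and the numbers are not said to mark pairs. In AsPC-1 all pairs under 0.1 held a sgDual guide. That limit therefore gives no reason to leave the block out among sgP1, sgP2 and sgNC, where the counts depend on it.

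Leaving out 1 library or 1 guide at a time gave 10 to 11 members for P1-a2 and 2 to 3 for P2-a8 in BxPC3, and 7 to 10 for P1-a2 against P2-a8. In AsPC-1 the ranges were 0 to 4 (sgP1), 1 (sgP2), 7 to 14 (sgDual), 1 to 7 (sgP2 against sgP1), 9 to 15 (sgDual against sgP1), 11 to 18 (sgDual against sgP2) and 3 to 5 (sgP1E against sgP1J). The value of 4 came without sgP1J, 1 without sgP1E, the 7 of sgP2 against sgP1 without sgP1E, 1 there without sgP2D or sgP2G, and 11 of sgDual against sgP2 without sgDual3. With 2 libraries a group, a left-out library leaves a lone sample assumed to vary like the other groups. Members under about 1 CPM, such as NR1H4, NR4A3 in AsPC-1 and ESR1, rest on few counts.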

Other observations

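NR2C2 (TR4), an orphan receptor that binds direct repeats, fell with P1-a2 by 0.26 ± 0.08 in Panc10.05 and 0.20 ± 0.07 in BxPC3. NR2F6, a repressor related to the COUP factors, rose with P1-a2 in Panc10.05 by 0.35 ± 0.06, from 94.7 and 91.2 to 116 and 122 CPM, and fell with sgDual in AsPC-1 by 0.21 ± 0.07. NR2C1 (TR2) was higher with sgP2, at 34.7 to 36.9 CPM against 26.9 and 28.1 with sgNC, a call (0.36 ± 0.09, adjusted p = 0.0433 in edgeR's quasi-likelihood test) lost without any 1 of those 6 libraries, at adjusted p up to 0.323. NR4A3 was at 0.0899 to 0.567 CPM in AsPC-1 and was called for sgDual against sgP2 (1.33 ± 0.42).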
